A study of Caenorhabditis elegans with 6 samples.

Results

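Transcripts of 9 genes of neuronal signalling and secretion were followed in RNA immunoprecipitates of MBL-1, the muscleblind splicing regulator of Caenorhabditis elegans. The genes were egl-8, gsa-1, unc-43, unc-31, unc-64, unc-108, mod-5, nlp-16 and nlp-24, among 31563 annotated genes once piRNA genes were left out. They were chosen by name with the measured peaks of these lists in view, so their having peaks is not a finding. Their peak numbers, positions and fold enrichments are given as a description without tests. A peak was assigned to a gene when its summit lay inside the gene's WBcel235 span, and this gave 22 peaks, each with 1 summit, of 437 peaks with 459 summits in all.

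The study compared RNA pulled down through the FLAG tag with an antibody (IP, n = 3) with total RNA taken before precipitation (RNA input, n = 3). Every sample came from whole L4 larvae of 1 genotype, mbl-1c(syb5299), grown at 20 °C on OP50 bacteria. The sample titles call this genotype a mutant, and the study's design text describes the animals as 3xFLAG::MBL-1, so the allele was taken here to be the tag. Both groups share this genotype, and an untagged immunoprecipitate was not analysed here. Each IP was set by the authors against the input of the same number, giving lists 1, 2 and 3. Because whole animals were sampled, the values do not show which cells an RNA came from, and fewer cells of a type cannot be told apart from less RNA per cell.

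As background, signalling through heterotrimeric G proteins sets how much transmitter worm motor neurons release. The Gq alpha subunit acts through a phospholipase C beta to make diacylglycerol, and the Gs alpha subunit acts through adenylyl cyclase to make cyclic AMP. Small clear vesicles fuse with the plasma membrane through syntaxin and its SNARE partners, while neuropeptides leave from dense-core vesicles, whose release needs the CAPS protein. Muscleblind proteins bind RNA and regulate alternative splicing in neurons and muscle.

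The peaks of these genes rested on few tags. After duplicate removal, IP libraries held 39033 to 49827 tags and input libraries 30707 to 38364 tags. Of the 22 member summits, 17 had 4 to 6 IP tags and 5 had more. A count of 5 tags has an exact 95% Poisson interval of 1.62 to 11.7 and a count of 6 one of 2.20 to 13.1, which cover counting error only. At 21 of the 22 summits the input was at the genome-wide background level, so those folds follow from the IP tags alone and have no measured denominator. With input at background, the caller's threshold could be passed by 4 tags in list 1, 4 in list 2 and 3 in list 3. A gene without a peak in a list may thus have had a few tags there, and absence from a list was not a measured 0.

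Of the 9 genes, 3 had a peak in list 1, 5 in list 2 and 6 in list 3. Over all 19983 protein-coding genes, leaving out summits in small structured RNA genes such as snoRNA and snRNA genes, the shares with a peak were 0.26% in list 1, 0.325% in list 2 and 0.515% in list 3. The share with a peak in at least 1 list was 0.686%. Since the genes were picked from those with peaks, these shares are given only as the background. Peaks of egl-8, unc-43 and gsa-1, 3 of the 9 genes, were in at least 2 lists, against a background of 41.6% of the 137 coding genes with a peak (0.285% of all coding genes). All 3 lists held peaks of egl-8 and unc-43, 2 of 9, against 19% of coding genes with a peak (0.13% of all). The other 6 genes had 1 peak each. Of these, unc-31, unc-64 and mod-5 were in list 3 only, a pattern of 38.7% of coding genes with a peak, and unc-108, nlp-16 and nlp-24 were in list 2 only, a pattern of 13.1%.

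**Figure D1:**
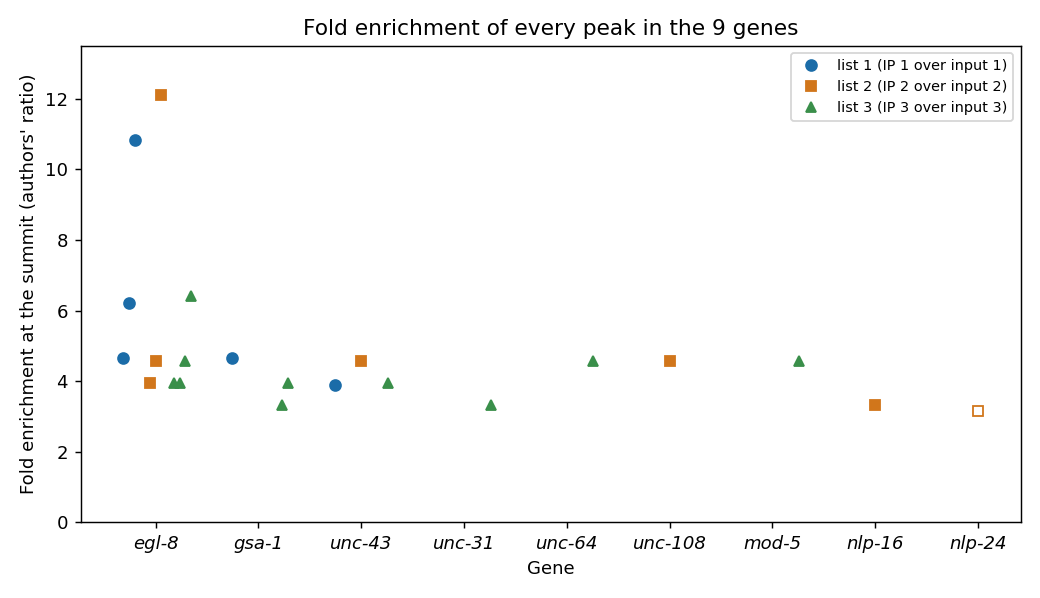
Fold enrichment at the summit (vertical axis, the authors' ratio of IP to local input) for every peak of the 9 genes (horizontal axis), with 1 symbol per peak, coloured by list. Filled symbols have input at the background and the open symbol, nlp-24, has a measured input. Only egl-8 has peaks above 5-fold, up to 12.1, and the other 8 genes lie between 3.16 and 4.67.

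Among the G protein genes, egl-8 had the most peaks and the highest fold, while gsa-1 had more peaks per length (5.12 per 10 kb, against 4.37 in egl-8). The gene egl-8 encodes the phospholipase C beta that acts downstream of the Gq alpha subunit, and it spans 22887 bp (WBcel235, chromosome V, 20818 to 43704). It had 10 of the 22 peaks, with 3 in list 1, 3 in list 2 and 4 in list 3. Only 2 of the 137 coding genes with a peak had more summits, and 2 others had as many. These numbers were not scaled by gene length, and the median length of the non-member coding genes with a peak was 3113 bp. The egl-8 peaks formed 5 regions, here meaning sets of peaks that overlap by at least 1 bp. Of these regions, 2 were in all 3 lists, 1 was in lists 1 and 3, and 2 were in a single list.

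The strongest egl-8 region (V, 31801 to 32209) lay near the middle of the gene, at 48.0 to 49.8% of its length from the low-coordinate end. It had 13 IP tags in list 1 (95% interval 6.92 to 22.2), 18 in list 2 (10.7 to 28.4) and 9 in list 3 (4.12 to 17.1). List 2 was highest and list 3 lowest, and the intervals of the 3 lists overlap. The folds were 10.8, 12.1 and 6.43, with a mean of 9.78 ± 2.98 (SD, n = 3). Among summits in coding genes, this one ranked 5 of 66 by fold in list 1, 4 of 87 in list 2 and 23 of 146 in list 3. The 3 summits lay within 45 bp of each other and 319 bp were common to the 3 peaks. At its lowest −log10 q, 5.03 in list 3, it was still past the strictest threshold tried, and no other egl-8 region was.

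A second region in all 3 lists (V, 32382 to 32888) began 172 bp above the end of the first. It had 5 tags in list 1, 6 in list 2 and 5 in list 3. Each count was below that of the neighbouring region in the same list, although the intervals of the 2 regions overlap in each list. The folds were 4.67, 4.57 and 3.94, with a mean of 4.40 ± 0.393 (SD, n = 3). Its summits were spread over 324 bp, with those of lists 1 and 2 close together and that of list 3 nearer the high-coordinate edge. In list 3 its q was 0.146, and in list 1 it was 0.0184.

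The other shared egl-8 region (V, 26449 to 27001) began 24.6% along the gene, 5631 bp from its low-coordinate end. It had 7 tags in list 1 and 6 in list 3, and folds of 6.20 and 4.56, with a mean of 5.38 ± 1.16 (SD, n = 2). List 2 had no peak there. The single-list regions were V, 28331 to 28699 with a fold of 3.94 in list 3, and V, 34158 to 34358 with a fold of 3.95 in list 2. Each rested on 5 tags, with q values of 0.146 and 0.279. All egl-8 peaks fell between 26449 and 34358, which is 34.6% of the gene. No peak lay in the 5631 bp below or the 9346 bp above. The snoRNA gene B0348.8 inside egl-8 (39259 to 39364) had no peak, and the nearest egl-8 peak was 4901 bp away.

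**Figure D2:**
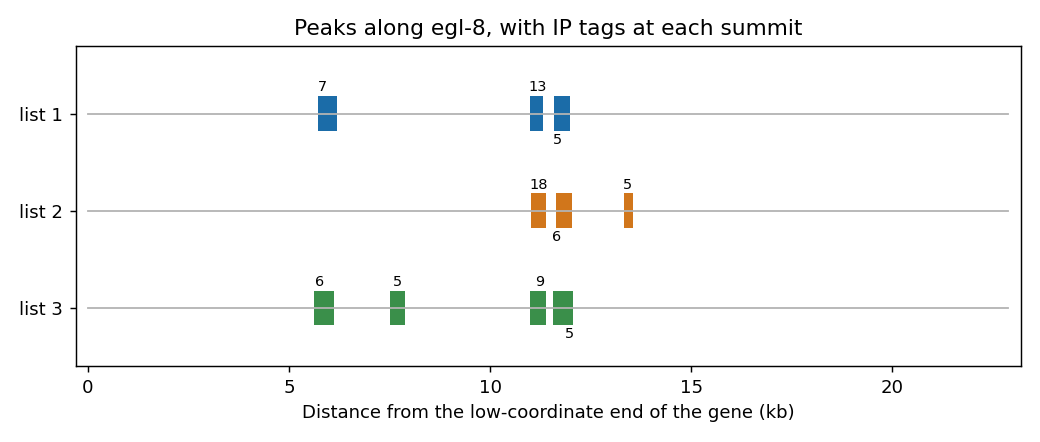
Peaks along egl-8 in each list, as bars to scale by distance in kb from the low-coordinate end of the annotated gene, with the number of IP tags at each summit. The 2 regions near the middle of the gene appear in all 3 lists, with 13, 18 and 9 tags in the lower-coordinate one and 5, 6 and 5 in the other.

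The gene gsa-1 encodes the Gs alpha subunit, which activates adenylyl cyclase (I, 1068484 to 1074343, 5860 bp). It had 1 peak in list 1 and 2 in list 3, and none in list 2. The shared region (I, 1068841 to 1069090) lay 357 bp from the low-coordinate end and held 155 bp common to both peaks. It had 5 tags in both lists, with a fold of 4.67 in list 1, a fold of 3.94 in list 3 and a mean of 4.31 ± 0.510 (SD, n = 2). The tag numbers were equal, and the caller scaled them by 0.939 in list 1 and 0.734 in list 3, over background levels of 0.220 and 0.184. The other gsa-1 peak (I, 1072672 to 1072916, list 3) had 4 tags and a fold of 3.32. Its q was 1 and its −log10 p of 3.05 was the lowest among the member peaks, shared with unc-31, just inside the authors' p threshold of 0.001.

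The gene unc-43 encodes calcium/calmodulin-dependent protein kinase II (CaMKII), which acts in synaptic signalling in neurons and muscle. It is the longest of the 9 genes (IV, 10324254 to 10350217, 25964 bp). It had 1 peak per list, with 4 tags in list 1, 6 in list 2 and 5 in list 3, and folds of 3.90, 4.57 and 3.94. The peaks of lists 1 and 3 overlapped over 202 bp (region IV, 10341783 to 10342046), and the peak of list 2 (10342105 to 10342305) began 58 bp beyond that region. All 3 thus fell in 523 bp, or 2.01% of the gene, 17529 bp from its low-coordinate end. Only the peak of list 2 had a q under 0.05 (0.0178).

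The vesicle genes had 1 peak each. The gene unc-64 encodes syntaxin, the plasma membrane SNARE of synaptic vesicle fusion (III, 13277259 to 13283887). Its peak in list 3 (13280469 to 13280763) had 6 tags and a fold of 4.56, with the summit 50.6% along the gene and a q of 0.00680. The gene unc-108 encodes the small GTPase Rab2, which works in the maturation of dense-core vesicles (I, 3822883 to 3826514). Its peak in list 2 (3825759 to 3825984) also had 6 tags, with a fold of 4.57, the summit 81.9% along the gene and a q of 0.0178. Both peaks thus rested on the same tag number, in different lists.

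The gene unc-31 encodes CAPS, which is needed for the release of dense-core vesicles (IV, 12773867 to 12788354). Its peak in list 3 (12776332 to 12776533) had 4 tags, a fold of 3.32 and a q of 1, and it was the weakest of the vesicle genes. The gene holds the snRNA genes ZK897.2, ZK897.3 and ZK897.4, and no peak of any list overlapped them. The unc-31 peak lay 5533 bp from the nearest of them.

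The serotonin reuptake transporter gene mod-5 (I, 3034716 to 3047794) had a peak in list 3 (3041765 to 3042014). It had 6 tags, a fold of 4.56 and a q of 0.00680, with the summit 54.8% along the gene. These values equal those of unc-64 in the same list, since tag number and background input together fix the fold and the q of such a peak.

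The neuropeptide precursor genes nlp-16 and nlp-24 each had a peak in list 2 with a q over 0.05. The nlp-16 peak (IV, 6258953 to 6259153) had 4 tags and a fold of 3.32, and lay at 81.6 to 85.8% of a gene of 4784 bp (6255049 to 6259832). The nlp-24 peak (V, 11616371 to 11616665) had 11 tags (95% interval 5.49 to 19.7), a count exceeded among the member summits only by egl-8 in lists 1 and 2. Its fold was the lowest of them, 3.16, with a q of 0.371, and the local input level there was 2.00, against a genome-wide background of 0.228. It was the 1 member summit with input above the background, and hence the 1 fold of the 22 with a measured denominator. The gene is short, 453 bp (11616376 to 11616828), and the peak ran from 5 bp outside its low-coordinate end to 63.8% of its length. Ends of 3 member genes overlap another coding gene, nlp-24 with glb-15 over 24 bp, unc-64 with set-25 over 64 bp and mod-5 with Y54E10BR.2 over 52 bp. The member peaks lay outside these neighbours, at 140, 3061 and 6998 bp from them. Strand was not used, so the coding gene of a peak was taken from spans alone.

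**Figure D3:**
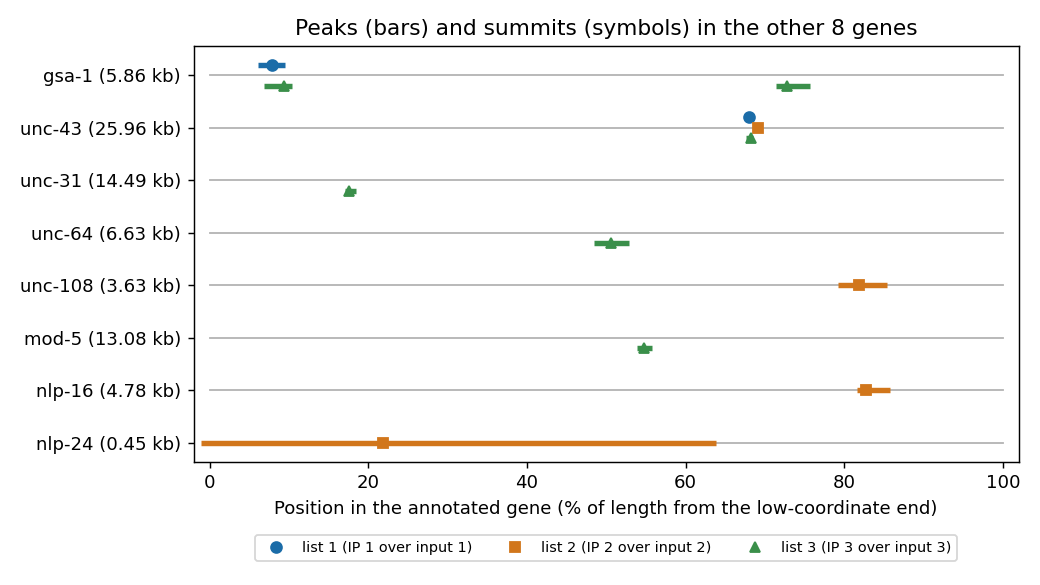
Peaks (bars) and summits (symbols) of the 8 genes other than egl-8, by position as a percentage of gene length from the low-coordinate end, coloured by list, with gene lengths beside the names. The 3 unc-43 peaks lie together between 67.5 and 69.5% of the gene, and the gsa-1 peaks of lists 1 and 3 overlap near its low-coordinate end.

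By their highest fold, the genes ran egl-8 (12.1), gsa-1 (4.67), unc-43 and unc-108 (4.57 each), unc-64 and mod-5 (4.56 each), unc-31 (3.32), nlp-16 (3.32) and nlp-24 (3.16). The Poisson interval of the highest egl-8 count (list 2), 10.7 to 28.4 tags, overlaps those of gsa-1 (list 1, 1.62 to 11.7) and unc-43 (list 2, 2.20 to 13.1). Each is an unscaled count from 1 list, so the overlap does not show whether the genes differ. The intervals of all neighbours in this order overlap. Folds were scaled by list, so the order is not one of tag numbers. For gsa-1, 5 tags gave a fold of 4.67 in list 1 and 3.94 in list 3. A gene with more peaks also had more chances of a high fold. The median fold of the 12 peaks outside egl-8 was 3.94 and that of the 10 egl-8 peaks 4.62.

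**Figure D4:**
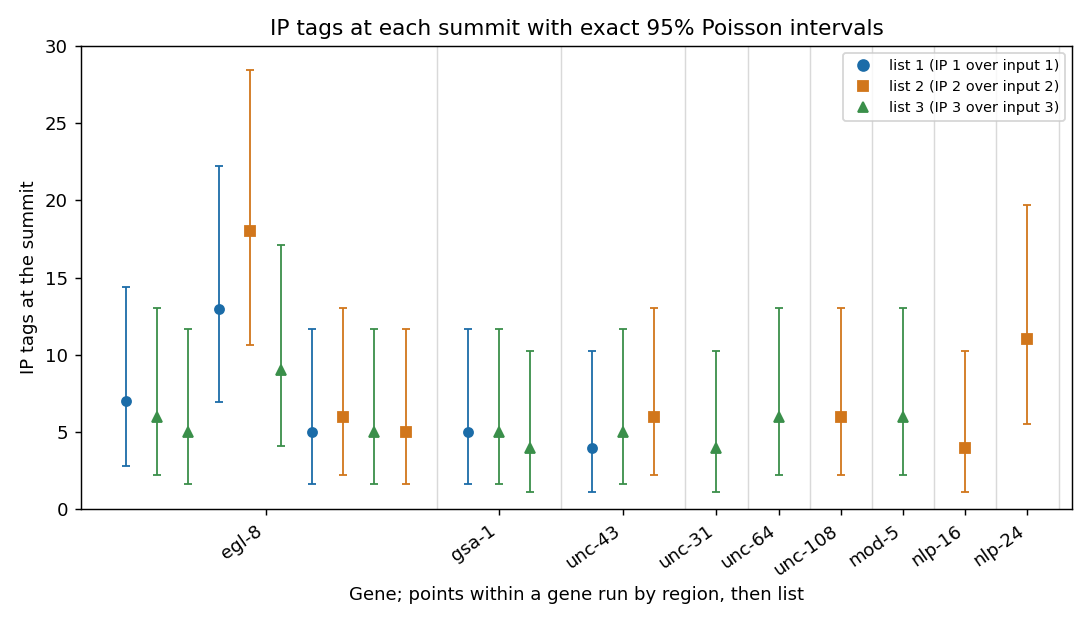
IP tags at each of the 22 summits (vertical axis) with exact 95% Poisson intervals as bars, grouped by gene and coloured by list. The strongest egl-8 region has 9 to 18 tags and nlp-24 has 11, while the other summits have 4 to 7 with intervals that overlap one another.

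Set beside the 277 summits of the 128 other coding genes with a peak, member summits had a median of 5.5 tags, against 7 in the others. The median folds were 4.56 and 4.58. Input was at the background at 95.5% of member summits and at 69.3% of the others, and q was over 0.05 at 45.5% and 37.5%. Whether these differences exceed chance was not tested, since the members were chosen on these lists. Strand and exons were not used here, so position was described as the distance of a summit from the nearer gene end. For the others this was taken over 290 pairs of a summit and a gene, since some summits lay in more than 1 coding gene. The median was 48.3% of gene length for the 10 egl-8 summits, of a possible 50%. It was 24.5% for the 12 summits of the other 8 genes, and 23.1% for the other coding genes. The 10 egl-8 summits came from 5 regions, 2 of them counted in each of the 3 lists, so they are not separate positions. Within 10% of an end lay none of the egl-8 summits, 16.7% of those of the other 8 genes, both in the shared gsa-1 region, and 20.3% of those of the other coding genes. Whether the peaks lie in exons, introns or UTRs is not given.

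Other genes of the same pathways were counted from lists assembled with earlier results of these data known. Of 28 genes of G protein and calcium signalling, 8 had a peak and 6 of these had peaks in more than 1 list. Both counts take every called peak, whatever its q, and include egl-8, gsa-1 and unc-43, which were chosen with their peaks in view. Of the 25 non-members, 5 had a peak. Over all coding genes, 0.686% had a peak and 0.285% recurred in a second list. Counting only coding genes that had any peak, 41.6% recurred. These shares are given only as the background. The 5 non-members included goa-1 (Go alpha subunit), gpb-1 (G beta subunit) and gpc-2 (G gamma subunit). Another was cmd-1 (calmodulin, the calcium sensor that activates CaMKII). The cmd-1 region (V, 1156640 to 1157333) was in all 3 lists, with a fold of 5.44 ± 0.897 (SD, n = 3). It had 13 to 15 tags per summit, with input above the background in each list. Its peaks had 123 bp in common. From the low-coordinate end, the summits lay at 796 bp in list 1, 934 bp in list 2, and 472 and 742 bp in list 3. The mean takes the list 3 fold from the summit at 472 bp (5.64). A goa-1 region (I, 7522108 to 7522352) was in lists 1 and 3, as was the shared gsa-1 region. Its folds were 5.44 on 6 tags in list 1 and 3.94 on 5 tags in list 3 for goa-1. Another goa-1 peak (I, 7525039 to 7525311) was in list 3 only, with 4 tags and a fold of 3.32. The gpb-1 peaks were 3, all in list 3, with folds of 3.32 to 4.56 and −log10 q of 0 to 2.17. The gpc-2 peak had a fold of 3.58 in list 2 over a measured input, with a −log10 q of 0.586. At a q of at most 0.05, only egl-8 and cmd-1 of the genes in this list kept peaks in more than 1 peak list, and gpc-2 kept none.

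In the remaining pathway lists the members were the only genes with a peak. These were 3 of 33 annotated genes of vesicle release and dense-core vesicles, 1 of 15 of serotonin and other monoamines, and 2 of 151 neuropeptide precursor genes. None of these 6 genes recurred in a second list. With few coding genes called in any list, and 3 or 4 tags needed for a call, the lack of a peak at the other 30, 14 and 149 genes was not informative at this depth.

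The coding genes most like egl-8 in their number of summits in lists 1, 2 and 3 (3, 3 and 4) were rig-6, which encodes a contactin-family cell adhesion molecule, with 2, 3 and 5, Y55B1BL.1 with 4, 4 and 4, and the ETS transcription factor gene lin-1 with 2, 3 and 5. Likeness was the sum of absolute differences over the 3 lists, which was 2 for each gene. Their IP tags summed over summits were 46, 451 and 840, against 79 for egl-8.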

How the data were processed

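Peak lists of 3 IP and input pairs were analysed. Per the labels' protocols, RNA was fragmented to 250 bp. The submitters' processing notes name BWA, MACS2 and DiffBind and the build WBcel235. Per the file headers, the authors called peaks with MACS2 2.1.0.20150420 on 1 IP against 1 input, at a p of 0.001, keeping 1 tag per position, which removed 67.4 to 71.9% of tags. The deposited signal is the pileup of extended IP tags, scaled by the authors' caller to the smaller library. The deposited fold enrichment is the authors' ratio of pileup to local input level, each with 1 added. The deposited −log10 p and −log10 q are the caller's, although, per the file headers, no q was to be computed.

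IP tags were recovered as pileup over the scaling factor (whole at all 459 summits within 0.01), and input levels from pileup and fold. An input level within 0.01 of the background of the list counted as background. That background rests on the genome size of 33769074 bp set in the file headers. Folds and p-values at summits with background input depend on this setting. Summits were placed on spans of the RefSeq WBcel235 gene table (31563 genes), which was matched to the peaks by build name alone. Members and pathway lists were chosen with earlier results of these data known. All 9 members, the pathway genes with a peak (1 is not reported here), and the 3 genes nearest to the member with most peaks are named. No test was run. The labels do not say that replicates came from separate cultures, so their spread may be technical. Assignment of peaks and regions was tried on simulated peaks that overlapped within a region and lay well apart between regions. It therefore did not probe regions close to each other. Alternatives were other thresholds, gene and overlap rules, and leaving out each replicate. Scripts ran under Python 3.11.15 with pandas 2.3.3, scipy 1.17.1, numpy 2.4.6 and, for plots, matplotlib 3.10.9.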

Additional observations from a re-analysis of the deposited data

How the results depend on the processing

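The 9 genes had 22 peaks, 3 genes in at least 2 lists and 5 regions in at least 2 lists. These counts were the same when any overlap of the whole peak assigned it to a gene. The number of such regions was also 5 when sharing required 50% reciprocal overlap or summits within 100 bp. Membership changed under the 100 bp rule. The egl-8 region at V, 32382 to 32888, with summits spread over 324 bp, then no longer included its list 3 peak. Stricter thresholds lowered the counts by construction. With a −log10 q of at least 5, 3 peaks, 1 gene and 1 region remained, all in egl-8. Of the 128 other coding genes with a peak, 31 kept a peak at this threshold. A q of at most 0.05 and a fold of at least 4 each left 12 peaks, 1 gene in at least 2 lists and 3 regions. Each left a peak in 6 of the 9 genes and in 81 of the 128 others. The members without one were unc-31, nlp-16 and nlp-24. Requiring input above the background left 1 peak, that of nlp-24, and 0 recurrent genes and regions. This setting left a peak in 48 of the 128 other coding genes. Leaving out each replicate gave 12 to 17 peaks, 2 to 3 genes and 2 to 5 regions. Without replicate 3 there were 12 peaks and 2 regions, and without replicate 1 there were 2 regions. With 2 or 3 values per region, leaving out a replicate does not test the stability of a mean fold. No paired analysis was possible because values exist solely at called peaks, and each fold is already a ratio within a pair. Depth limits what absence from a list shows, since a peak needed 3 or 4 tags.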

Other observations

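The deposited p-values of the members move in steps. At all 270 summits with input at the background, the deposited −log10 p equalled, within 0.05, the Poisson value for the integer part of the scaled pileup. The nlp-16 peak with 4 tags and the egl-8 peak at V, 34158 to 34358 with 5 tags, both in list 2, therefore have the same −log10 p of 4.02 although their pileups were 3.08 and 3.85.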
